A study of Mus musculus with 36 samples.

Results

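Genes of the interleukin-6 (IL-6) cytokine family and 2 acute-phase genes were followed in Bhas 42, a line of mouse fibroblasts. The line was made by introducing viral Ha-ras into BALB/c 3T3 and serves to score transforming activity of test substances. The 9 genes were Saa3, Lcn2, Il6, Lif, Il11, Il6st, Osmr, Socs3 and Stat3, out of 22911 genes named on the array. Their probes were found by matching the probes' transcript accessions to gene symbols, which gave 14 probes. The genes were selected on the log2 changes of treated against control arrays in these same data, so every value of theirs that compares treatments is a description. Where a member is said to be called, it passed the threshold of the fit across all genes, which is given as a label and supports nothing, since the selection used the same values. RNA was measured on 36 arrays, 4 for each of 9 groups, after 48 h of exposure begun on day 4 and ended on day 6. The silica groups were NM-203, a synthetic amorphous silica, at 1, at 2 and at 5 µg/cm², and diatomaceous earth (DE), also at 5 µg/cm², and these share a control given 2% water. Min-U-Sil 5, a crystalline silica, was given at 20 µg/cm² and is compared with a separate set of 2% water cultures. The phorbol ester TPA was given at 0.05 µg/ml and is compared with its solvent, 0.1% DMSO. Every group, the controls included, is the same oncogene-bearing line, so no group shows cells without viral Ha-ras.

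Cytokines of the IL-6 family bind a receptor of their own and then the shared signalling chain gp130, encoded by Il6st. Janus kinases on the receptor phosphorylate STAT3, which enters the nucleus and turns on its target genes, among them Socs3, whose product shuts the receptor off again. In the liver this pathway drives the acute-phase response, the rise of plasma proteins such as serum amyloid A in inflammation. Saa3 and Lcn2 are also made outside the liver, by fibroblasts and macrophages among others.

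The stretch just before the start of the gene is shown for the 3 genes that moved most, Saa3, Lcn2 and Il6, and for Socs3, the classical STAT3 target, which was not called in any comparison. All 9 genes had such a window in RefSeq's table for GRCm38.p6, and each holds the 250 bases before the annotated start, read along the gene. The windows are chr7:46715677-46715926 for Saa3, chr2:32387740-32387989 for Lcn2 and chr11:117969367-117969616 for Socs3, all on the minus strand, and chr5:30012864-30013113 for Il6 on the plus strand. Capitals mark matches, on either strand, to a STAT motif (TTCNNNGAA), an AP-1 motif (TGANTCA), a C/EBP motif (TTNNGNAA) or the kappa B consensus.
Saa3: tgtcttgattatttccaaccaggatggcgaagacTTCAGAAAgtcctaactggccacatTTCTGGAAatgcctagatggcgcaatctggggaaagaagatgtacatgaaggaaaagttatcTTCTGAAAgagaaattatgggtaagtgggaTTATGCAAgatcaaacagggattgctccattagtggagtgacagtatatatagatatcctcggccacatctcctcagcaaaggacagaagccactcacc
Lcn2: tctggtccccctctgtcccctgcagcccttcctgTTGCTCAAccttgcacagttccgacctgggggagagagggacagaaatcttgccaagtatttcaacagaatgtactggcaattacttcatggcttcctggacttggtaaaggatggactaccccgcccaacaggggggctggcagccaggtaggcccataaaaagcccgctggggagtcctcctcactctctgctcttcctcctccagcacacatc
Il6: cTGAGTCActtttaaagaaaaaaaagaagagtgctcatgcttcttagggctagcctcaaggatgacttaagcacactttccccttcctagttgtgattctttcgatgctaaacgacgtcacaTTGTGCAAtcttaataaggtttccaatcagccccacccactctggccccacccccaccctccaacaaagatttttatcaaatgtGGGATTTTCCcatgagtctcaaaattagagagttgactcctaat
Socs3: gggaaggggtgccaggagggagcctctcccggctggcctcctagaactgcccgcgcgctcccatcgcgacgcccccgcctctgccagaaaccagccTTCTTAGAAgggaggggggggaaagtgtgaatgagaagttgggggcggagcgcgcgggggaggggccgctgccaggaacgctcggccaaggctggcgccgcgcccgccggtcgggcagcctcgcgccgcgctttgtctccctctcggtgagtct
The Saa3 window held 4 C/EBP matches and no other match. The Lcn2 window held 1 C/EBP match. The Il6 window held 1 AP-1 match at its far end, 1 C/EBP match and 1 kappa B match (GGGATTTTCC), which lies 44 to 35 bases before the start. The Socs3 window held the only STAT match among the windows of the 9 genes, TTCTTAGAA. Among 32851 windows of this length, 36.8% held the C/EBP motif, 7.25% the kappa B consensus, 7.02% the STAT motif and 6.75% the AP-1 motif, with no overlap of motifs in the printed windows. A match is a string of letters here, and binding was not measured.

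Values are log2 signals relative to the 75th percentile of the same array, so 0 is that percentile. A level of one probe cannot be set against that of another, and only differences between groups are read. Changes carry the standard error (SE) of a limma fit over all 36 arrays, with 4 arrays per group, and a gene counts as called where its Benjamini-Hochberg adjusted p over 32492 genes is under 0.05. The series record states that 4 independent experiments were made, without saying which arrays belong to which. The p-values therefore measure the spread between these samples, and how much of it is between experiments is not known. Between 55.1% and 76.2% of probes were well above background on an array, 0 spots were saturated, and 74 to 380 spots per array were left out as outliers, the most on replicate 2 of NM-203 at 2 µg/cm². The arrays lie on 5 slides scanned on 2 days, and NM-203 at 2 µg/cm² shares neither a slide nor a scan day with its water control. The 2 water controls differed in 24.5% of genes. All 11 fibroblast markers were detected in every group, and 8 to 10 of 11 macrophage markers were well above background on 1 or more arrays of each group. The summed linear signal of the macrophage list, in multiples of the 75th percentile, was 16.8 to 22.2 at the highest NM-203 dose against 20.3 to 28.9 in water, and 13.8 to 17.7 under Min-U-Sil 5 against 14.9 to 21.9. Ptprc, the pan-leukocyte gene, was not well above background in any group. Mpeg1 was higher under diatomaceous earth (1.20) and at the highest NM-203 dose (1.32), while Aif1 and Lyz2 were lower at that dose (-1.72 and -1.50). The part of such cells in the results was not tested. Of the 9 members, 8 passed the filter on dim probes, and Lif did not.

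**Figure D1:**
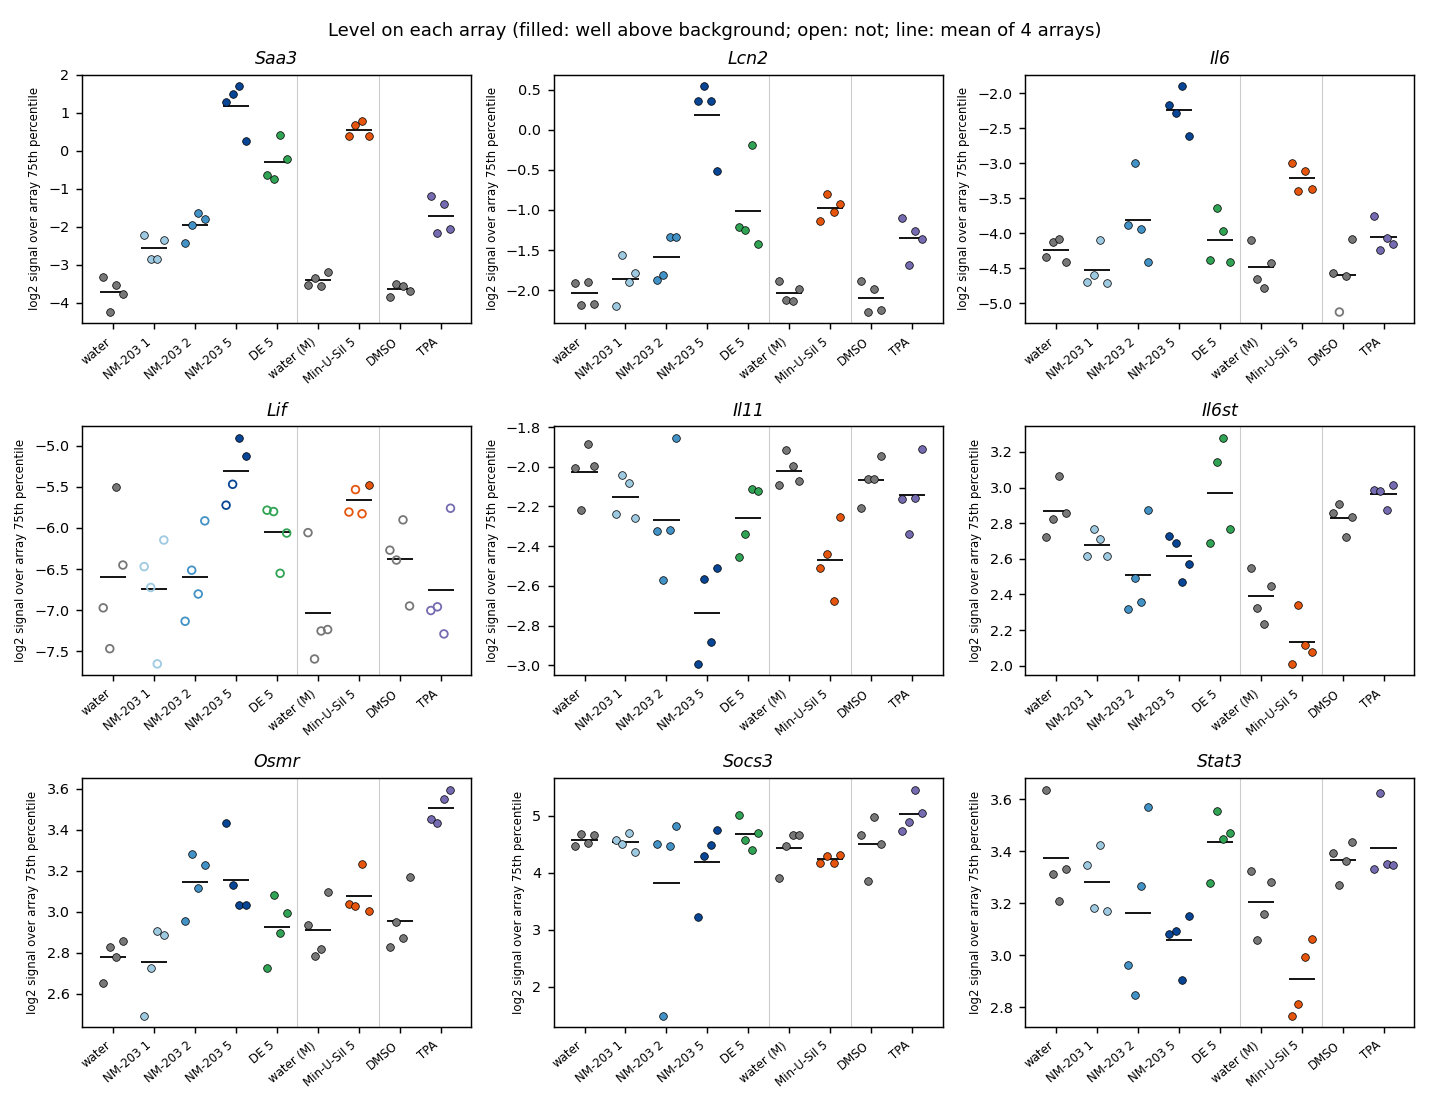
Level of each gene on each of the 36 arrays, as log2 signal over the array's 75th percentile, by group (water (M) is the control of Min-U-Sil 5), with the mean of 4 arrays as a line; filled points are well above background. Saa3 lies between 0.27 and 1.71 after NM-203 at 5 µg/cm² and between -4.25 and -3.33 in its water control, and most Lif points are open.

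Saa3, a serum amyloid A gene of fibroblasts and macrophages, had the largest change of the 8 measured members in all 6 comparisons and was called in 5 of them. In water its levels were -3.33, -4.25, -3.55 and -3.78. NM-203 at 1 µg/cm² gave -2.22, -2.85, -2.85 and -2.35, and at 2 µg/cm² -2.43, -1.97, -1.65 and -1.79. At 5 µg/cm² the levels were 1.30, 1.5, 1.71 and 0.27. Each NM-203 array was above each water array, and the arrays of the 5 µg/cm² group were above those of the lower doses. The changes against water were 1.16 ± 0.27, 1.76 ± 0.27 and 4.92 ± 0.27, the last a 30.2-fold difference, and the first was not called. In 17 of 19 other settings the change at 1 µg/cm² was still not called, and over the 19 it ranged from 0.64 to 1.29. The highest value, 1.29, came without replicate 1 of water and was called.

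Diatomaceous earth gave Saa3 levels of -0.65, -0.74, 0.42 and -0.22, a change of 3.43 ± 0.27 or 10.8-fold. Min-U-Sil 5 gave 0.40, 0.68, 0.78 and 0.38 against -3.54, -3.35, -3.57 and -3.20 in its water, a change of 3.97 ± 0.27 or 15.7-fold. TPA gave -1.19, -2.17, -1.41 and -2.07 against -3.84, -3.51, -3.56 and -3.71 in DMSO, a change of 1.94 ± 0.27 or 3.84-fold. In none of the 6 comparisons did the treated and control arrays overlap. Ordered by the mean level, the groups ran from NM-203 at 5 µg/cm² (1.19) through Min-U-Sil 5 (0.56), diatomaceous earth (-0.30), TPA (-1.71), NM-203 at 2 (-1.96) and at 1 µg/cm² (-2.57) to the Min-U-Sil 5 water (-3.42), DMSO (-3.66) and water (-3.73). Neighbours in this order overlapped in their arrays, except diatomaceous earth and TPA, and NM-203 at 1 µg/cm² and the controls. Array RNA is an average over a culture, so fewer cells making a transcript and less RNA per cell cannot be told apart here.

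Within slides the Saa3 changes kept their sign. On slide 1 the change at the highest NM-203 dose was 4.76 and on slide 3 it was 5.04. Diatomaceous earth gave 3.13, 3.57 and 3.39 on slides 1, 2 and 3, and Min-U-Sil 5 gave 3.94 and 4.15 on slides 4 and 5. NM-203 at 1 µg/cm² varied more, with 0.92, 1.57 and 0.70 on slides 1, 2 and 3, and TPA gave 1.76 on slide 1. For NM-203 at 2 µg/cm² no slide holds both groups, and the change was 1.62 with slide as a block and 1.45 against the Min-U-Sil 5 water, which shares its slides and from which 15.6% of all genes were called. Normexp background correction with quantile normalization gave smaller Saa3 changes, of 1.16 and 3.78 at 2 and 5 µg/cm² of NM-203, 2.45 under diatomaceous earth, 3.24 under Min-U-Sil 5 and 1.21 under TPA. In a fit of the diatomaceous earth and water arrays alone the Saa3 change was 3.43 but was not called.

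Lcn2, which encodes lipocalin-2, a protein that binds bacterial siderophores, followed with smaller changes. Water gave -1.91, -2.19, -1.89 and -2.17, and NM-203 at 5 µg/cm² gave 0.36, 0.55, 0.35 and -0.51. The groups did not overlap and differed by 2.23 ± 0.21, or 4.68-fold. The lower doses gave 0.18 ± 0.21 at 1 µg/cm² and 0.45 ± 0.21 at 2 µg/cm², and neither was called.

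Diatomaceous earth gave Lcn2 levels of -1.22, -1.24, -0.19 and -1.42, a change of 1.02 ± 0.21, with replicate 3 well above the others. Without that replicate the change was 0.74 and was no longer called, and without replicate 4 of water it was 0.98 and also lost its call. Min-U-Sil 5 gave -1.14, -0.80, -1.02 and -0.93 against -1.89, -2.12, -2.13 and -1.99, a change of 1.06 ± 0.21 with no overlap. TPA gave -1.10, -1.69, -1.27 and -1.37 against -1.88, -2.27, -1.98 and -2.25 in DMSO, a change of 0.74 ± 0.21. The TPA change fell to 0.47 with slide as a block and was then not called, nor was it without DMSO replicate 2 (0.68), DMSO replicate 4 (0.69), TPA replicate 1 (0.66) or TPA replicate 3 (0.71). A second, dimmer Lcn2 probe moved the same way, by 2.73 ± 0.27 at the highest NM-203 dose, 1.40 ± 0.27 under diatomaceous earth, 2.00 ± 0.27 under Min-U-Sil 5 and 1.35 ± 0.27 under TPA.

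Il6, the founding cytokine of the family, was called at the highest NM-203 dose and under Min-U-Sil 5. In water the levels were -4.34, -4.12, -4.08 and -4.41, and at 5 µg/cm² of NM-203 they were -2.17, -2.28, -1.90 and -2.61, a change of 2.00 ± 0.24 or 4.01-fold. Min-U-Sil 5 gave -3.0, -3.40, -3.12 and -3.36 against -4.09, -4.65, -4.78 and -4.42 in its water, a change of 1.27 ± 0.24 or 2.41-fold. Neither comparison had overlapping arrays. With normexp and quantile normalization the changes were 1.15 and 0.49, both still called. Under diatomaceous earth the levels were -4.39, -3.64, -3.97 and -4.41, within 0.14 ± 0.24 of water on average and overlapping it. TPA gave -3.75, -4.24, -4.06 and -4.15 against -4.57, -5.12, -4.61 and -4.08, a change of 0.54 ± 0.24 that was not called, and replicate 2 of DMSO was not well above background.

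NM-203 at 1 µg/cm² changed Il6 by -0.28 ± 0.24 and at 2 µg/cm² by 0.43 ± 0.24, neither of them called. At 2 µg/cm² replicate 2 stood at -3.0 and the other arrays at -3.88, -3.94 and -4.42. The second Il6 probe was well above background on 4 arrays each at the highest NM-203 dose and under Min-U-Sil 5 and on 1 array in each of their controls. It passed the filter on dim probes only through those 2 groups, so its changes are not given.

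Il11, the second ligand that was measured, went the other way. Water gave -2.0, -2.22, -1.88 and -2.0, and NM-203 at 5 µg/cm² gave -2.99, -2.56, -2.88 and -2.51, a change of -0.71 ± 0.13 with no overlap. Min-U-Sil 5 gave -2.51, -2.44, -2.68 and -2.25 against -2.09, -1.92, -2.0 and -2.07, a change of -0.45 ± 0.13, again with no overlap. The other changes were -0.13 and -0.24 at the lower NM-203 doses, -0.23 under diatomaceous earth and -0.07 under TPA, each with an SE of 0.13 and not called.

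Lif, leukaemia inhibitory factor, has 1 probe, which was well above background on 4 of 36 arrays. Of these, 2 were in the group given the highest NM-203 dose, 1 in water and 1 in Min-U-Sil 5. Its levels were -5.72, -5.47, -4.90 and -5.13 at that dose and -6.97, -7.47, -5.50 and -6.45 in water. No fold change is given, since most of these signals are not distinguishable from background.

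**Figure D2:**
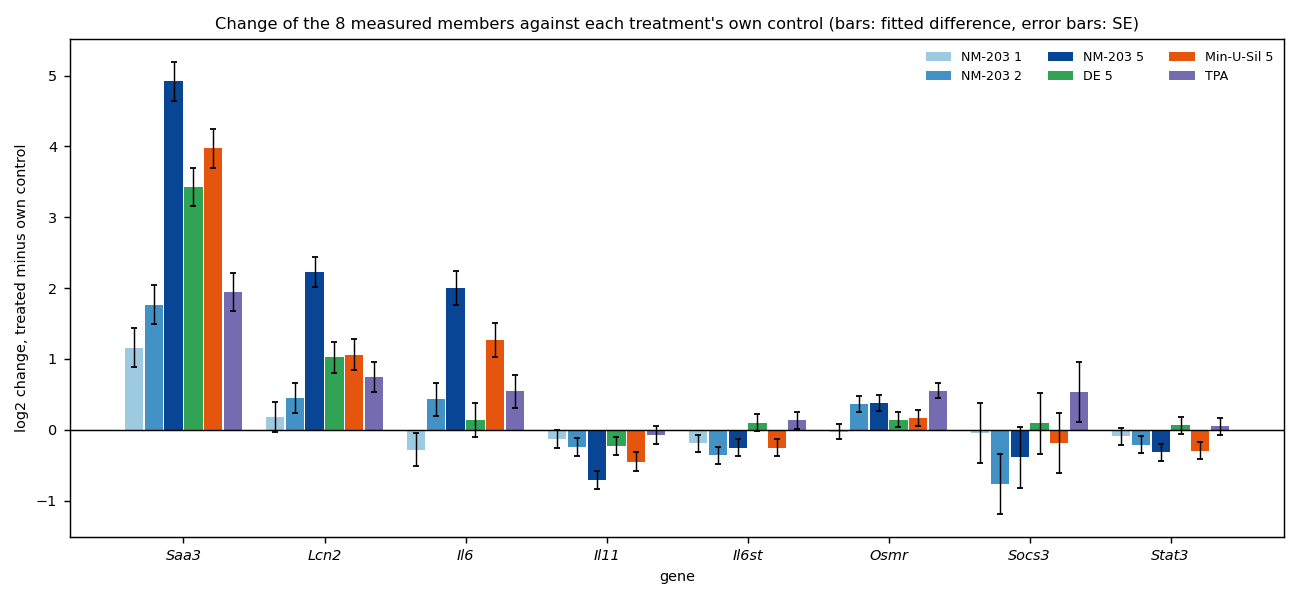
Log2 change of the 8 measured members against each treatment's own control; bars are the fitted difference and error bars its SE (4 arrays per group). Saa3 reaches 4.92, Lcn2 2.23 and Il6 2.00 at the highest NM-203 dose, and Il11 lies below 0 in all 6 comparisons.

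The receptor chains moved little. Osmr, the oncostatin M receptor, read 2.65, 2.83, 2.78 and 2.86 in water and 3.43, 3.13, 3.03 and 3.03 at the highest NM-203 dose, a change of 0.38 ± 0.11 with no overlap. TPA gave 3.45, 3.43, 3.55 and 3.60 against 2.83, 2.95, 2.87 and 3.17 in DMSO, a change of 0.55 ± 0.11. A second Osmr probe gave 0.40 ± 0.15 and 0.84 ± 0.15 in the same comparisons. With normexp background correction and quantile normalization the change at the highest NM-203 dose fell to 0.20 and was not called.

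At 2 µg/cm² of NM-203 the 2 Osmr probes disagreed, with 0.36 ± 0.11 for the brighter and -0.45 ± 0.15 for the dimmer, and both were called. The brighter probe's change was 0.11 with slide as a block and 0.24 against the Min-U-Sil 5 water, neither of them called, so no direction is given for Osmr at that dose. Il6st read 2.72, 2.83, 3.07 and 2.86 in water and 2.32, 2.49, 2.36 and 2.88 at 2 µg/cm², a change of -0.36 ± 0.12 that was called although the groups overlap. Against the Min-U-Sil 5 water it was 0.12 ± 0.12. The Il6st level of the 2 water controls differed by -0.48 ± 0.12 (limma adjusted p = 0.00583), with the Min-U-Sil 5 water lower, and with slide as a block the adjusted p was 0.227. A second, dimmer Il6st probe averaged 0.61 in water, 0.08 at 2 µg/cm² and 0.30 in the Min-U-Sil 5 water. At that dose it was lower than in either water, with overlapping arrays.

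Stat3, the transcription factor of the pathway, read 3.64, 3.31, 3.21 and 3.33 in water and 3.08, 3.09, 2.90 and 3.15 at the highest NM-203 dose. Those arrays did not overlap and differed by -0.32 ± 0.12. The call was lost in 13 of 19 other settings, among them slide as a block (-0.26) and leaving out water replicate 1 (-0.23). Leaving out any one of water replicates 1, 2 and 4 or NM-203 replicates 1, 2 and 3 ended it. Under Min-U-Sil 5 Stat3 changed by -0.30 ± 0.12 and was not called. A second, dimmer Stat3 probe averaged -2.14 at the highest NM-203 dose and -1.99 in water, and its arrays overlapped. It averaged -2.36 under Min-U-Sil 5 and -2.09 in its water, again with overlap. Socs3, the feedback inhibitor, was not called in any of the 6 comparisons. Its SE of 0.43 was the widest of the 8 members, with 1.49 on replicate 2 and 4.46 to 4.83 on the other arrays at 2 µg/cm² of NM-203, and 3.22 on replicate 1 and 4.30 to 4.76 on the others at 5 µg/cm². Without that first array the change at 2 µg/cm² was 0.015, against -0.76 with it. TPA gave Socs3 levels of 4.73, 4.89, 5.46 and 5.04 against 4.66, 3.86, 4.98 and 4.5 in DMSO, which overlap, and a change of 0.53 ± 0.43.

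Counted together, NM-203 at 1 µg/cm² had 0 of the 8 measured members called, where 0.0862% of all genes were (0.0431% in each direction). At 2 µg/cm² the count was 2 higher and 1 lower beside 25.0% of all genes (16.2% higher, 8.85% lower), and at 5 µg/cm² 4 higher and 2 lower beside 33.1% (14.0% and 19.1%). Diatomaceous earth had 2 higher beside 1.01% (0.557% and 0.449%), Min-U-Sil 5 had 3 higher and 1 lower beside 25.6% (11.6% and 13.9%), and TPA had 3 higher beside 11.7% (4.89% and 6.78%). The median log2 change of the 8 members was 0.06 at the highest NM-203 dose and 0.54 under TPA, and that of all genes was 0.01 and -0.04. Since the members were listed with these comparisons known, nothing is read from the counts.

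Differences between treatments in the same fit are differences of the changes on which the members were selected, so they too are given with their SE or 95% interval and without a p-value. NM-203 and diatomaceous earth were both given at 5 µg/cm², and 29.2% of all genes were called between them. Il6 was 1.86 ± 0.24 higher under NM-203, Lcn2 1.21 ± 0.21 higher and Saa3 1.49 ± 0.27 higher. All 4 NM-203 arrays exceeded all 4 diatomaceous earth arrays for Il6, while for Saa3 the lowest NM-203 array, at 0.27, lay below the highest diatomaceous earth array, at 0.42. For Lcn2 the lowest NM-203 array, at -0.51, also lay below the highest of the other group, at -0.19.

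Il11 was -0.48 ± 0.13 under NM-203 against diatomaceous earth, which normexp with quantile normalization reduced to -0.21. Il6st differed by -0.36 ± 0.12 and Stat3 by -0.38 ± 0.12, and scaling on the array median brought these to -0.23 and -0.25. The second Il6st probe had the opposite sign, averaging 0.30 under NM-203 and 0.19 under diatomaceous earth with overlapping arrays, so no direction is given for Il6st here. The second Stat3 probe was lower under NM-203, at -2.14 against -1.88 on average, also with overlapping arrays. The brighter Osmr probe differed by 0.23 (95% interval 0.01 to 0.45) and the second by 0.45 ± 0.15. Socs3 differed by -0.48, with an interval from -1.35 to 0.39.

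Between NM-203 doses, Il6 was 1.57 ± 0.24 higher at 5 than at 2 µg/cm², Lcn2 1.78 ± 0.21 higher, Saa3 3.15 ± 0.27 higher and Il11 lower by a log2 difference of -0.47 ± 0.13, where 32.7% of all genes were called. From 1 to 2 µg/cm² Il6 differed by 0.71 ± 0.24, beside 15.1% of all genes called, and by 0.44 without replicate 2 at 2 µg/cm². Every array at 2 µg/cm² was scanned on day 2. Of the other doses only replicate 4 at 1 µg/cm² and replicate 1 at 5 µg/cm² were scanned on that day. Dose and scan day can therefore be only partly told apart in these differences.

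Responses against own controls were also set side by side, at doses that differ. The response to NM-203 at 5 µg/cm² minus that to TPA was 2.98 ± 0.39 for Saa3, 1.48 ± 0.30 for Lcn2, 1.46 ± 0.33 for Il6 and -0.64 ± 0.18 for Il11, with 14.8% of all genes called. Min-U-Sil 5 minus TPA was 2.03 ± 0.39 for Saa3, with 5.89% of all genes called.

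For Min-U-Sil 5 at 20 µg/cm² minus diatomaceous earth at 5 µg/cm² the difference was 1.13 ± 0.33 for Il6, 0.55 for Saa3 (95% interval -0.25 to 1.34) and 0.04 for Lcn2 (interval -0.58 to 0.66), with 10.5% of all genes called. With normexp and quantile normalization the Il6 difference was 0.43. For Min-U-Sil 5 minus NM-203 at 5 µg/cm², where 0.200% of all genes were called, it was -0.95 for Saa3 (interval -1.74 to -0.15), -1.17 for Lcn2 (interval -1.79 to -0.54) and -0.73 for Il6 (interval -1.42 to -0.05). Of the 8 measured members, 0 were called for this difference, and the intervals are not adjusted for the number of genes. This difference and that from diatomaceous earth rest on 2 water controls, which differed in 24.5% of genes. Leaving out NM-203 replicate 4, the lowest Lcn2 array of its group (-0.51), widened the Lcn2 difference to -1.40. Values without other arrays are not given for this difference.

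The serum amyloid A relatives of Saa3 moved less. Saa1, which encodes an acute-phase protein of the liver, rose by 0.97 ± 0.15 at the highest NM-203 dose (limma adjusted p = 3.87e-06) and by 0.69 ± 0.15 under Min-U-Sil 5 (adjusted p = 0.00056). Its 4 NM-203 arrays read -0.33, -0.29, -0.20 and -0.89 and its water arrays -1.38, -1.45, -1.41 and -1.33. Saa2 and Saa4 were well above background on 23 and 25 of 36 arrays and were not called in any of the 6 comparisons. The files hold no probe sequences, so how far one amyloid probe also reads the RNA of a relative was not tested.

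At the highest NM-203 dose and under Min-U-Sil 5, more of the other acute-phase genes fell than rose. Of 25 measured besides Saa3 and Lcn2, 1 rose and 9 fell at the highest NM-203 dose, and again 1 rose and 9 fell under Min-U-Sil 5, where 19.1% and 13.9% of all genes fell. Of all genes, 14.0% and 11.6% rose. The median changes of these 25 genes were -0.41 and 0.00032, against 0.01 and 0.04 for all genes. The list, with Trf and Ahsg in it, was not split by the direction its proteins take in an acute-phase response. The counts therefore give no direction for that response. This list and the other gene lists were chosen with earlier results of these data known, so their counts and adjusted p-values are descriptions. C3, the central complement component, fell by 2.08 on the log2 scale at the highest NM-203 dose (limma adjusted p = 5.31e-09) and by 2.26 under Min-U-Sil 5 (adjusted p = 3.6e-09). Trf, which encodes the iron carrier transferrin, fell by 2.27 and 1.72. The orosomucoid genes Orm1, Orm2 and Orm3 fell too, with log2 changes of -1.54, -1.71 and -2.15 at the highest NM-203 dose and -1.70, -1.04 and -2.07 under Min-U-Sil 5. Lbp, which encodes the lipopolysaccharide-binding protein, fell by 1.97 and 1.59.

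At 2 µg/cm² of NM-203, 1 of these 25 genes rose and 5 fell, among them Trf (-1.70 ± 0.22) and C3 (-0.95 ± 0.22). The fall of Orm1 there (-0.62 ± 0.15) became 0.06 ± 0.15 against the Min-U-Sil 5 water. Diatomaceous earth raised 1, the copper carrier ceruloplasmin gene Cp (0.75 ± 0.16, limma adjusted p = 0.0123), and lowered 0. TPA raised 3, Cp (1.42 ± 0.16), the haptoglobin gene Hp (1.25 ± 0.31) and Itih4 (0.61 ± 0.19), and lowered 5, of which Ahsg, the fetuin-A gene, fell most (-1.19 ± 0.27). Itih4 went the other way at the highest NM-203 dose, by -1.36 ± 0.19. Hp was well above background on 4 TPA arrays but on only 2 DMSO arrays, so its control level lies near background. Of all genes, 16.2% were called higher and 8.85% lower at 2 µg/cm² of NM-203. The shares were 0.557% and 0.449% under diatomaceous earth and 4.89% and 6.78% under TPA. Of 11 fibroblast markers, 8 also fell at the highest NM-203 dose and 8 under Min-U-Sil 5. Their summed linear signal, in multiples of the 75th percentile, was 625 to 837 at that dose and 1002 to 1125 in water. The part of this in the acute-phase result was not tested.

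**Figure D3:**
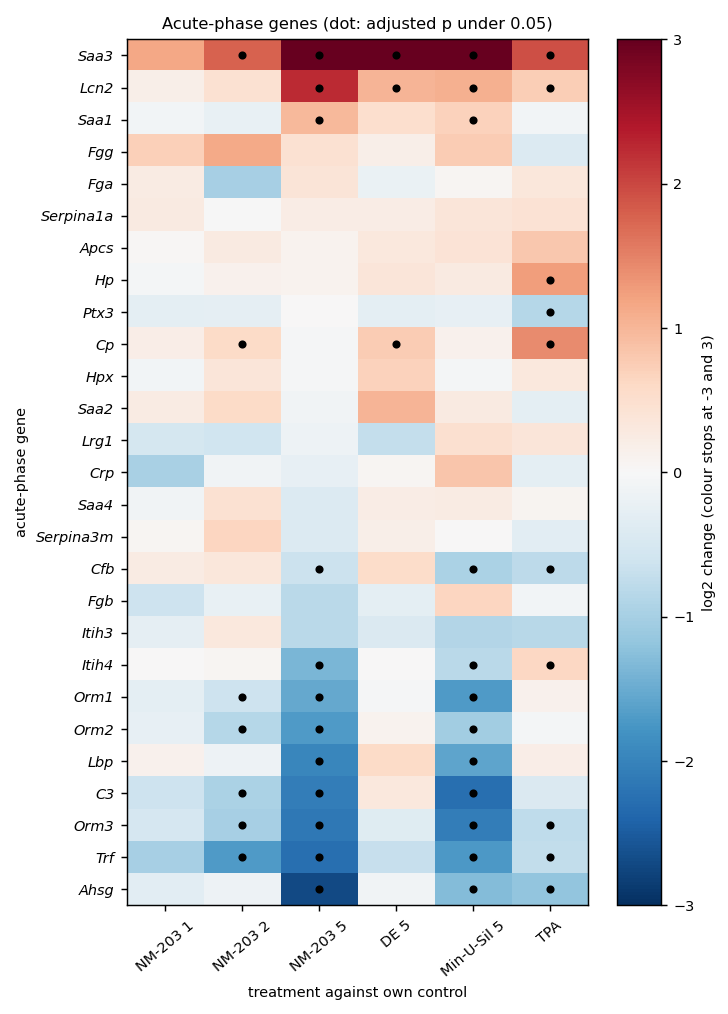
Log2 change of the 27 measured acute-phase genes (rows, ordered by the change at the highest NM-203 dose) in the 6 comparisons (columns); colour stops at -3 and 3 and a dot marks an adjusted p under 0.05. Saa3, Lcn2 and Saa1 are the genes with dots on the red side at NM-203 5, and 9 genes from Cfb to Ahsg have dots on the blue side.

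Among the 7 other measured ligand genes of the family, 1 rose and 3 fell at the highest NM-203 dose, and the same counts held under Min-U-Sil 5. Ebi3, which encodes a subunit of IL-27, fell by 2.36 (limma adjusted p = 1.59e-10) and by 1.66 under Min-U-Sil 5. Ctf1, the cardiotrophin-1 gene, fell by 0.68 and 0.80, and Cntf, ciliary neurotrophic factor, rose by 0.90 ± 0.15 and 1.05 ± 0.15. TPA lowered 3, among them Ebi3 (-1.17 ± 0.21) and Ctf1 (-1.02 ± 0.14), and raised 0. Diatomaceous earth changed 0 of the 7 by this test. Of all genes, 14.0% were called higher and 19.1% lower at the highest NM-203 dose, and 11.6% and 13.9% under Min-U-Sil 5. Under TPA 4.89% were called higher and 6.78% lower.

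Of 4 other receptor genes, 2 fell at the highest NM-203 dose, Il11ra1, the IL-11 receptor (-0.99 ± 0.16, limma adjusted p = 7.62e-06), and Lifr (-0.53 ± 0.15, adjusted p = 0.00578). Il11ra1 also fell under Min-U-Sil 5 (-1.0 ± 0.16) and TPA (-0.61 ± 0.16). Under Min-U-Sil 5 the 1 gene counted as higher, Il27ra, passed the filter on dim probes only through that group, so the count is no support for a change. Beside these counts, 19.1% of all genes were called lower at the highest NM-203 dose, 13.9% under Min-U-Sil 5 and 6.78% under TPA.

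Among 9 JAK and STAT genes besides Stat3, 1 rose and 2 fell at the highest NM-203 dose, 1 rose and 1 fell under Min-U-Sil 5, and 2 rose and 1 fell under TPA. The shares of all genes called higher and lower were 14.0% and 19.1%, 11.6% and 13.9%, and 4.89% and 6.78%, in that order. The counts under NM-203 and Min-U-Sil 5 lie near these shares. Stat5b, a transcription factor of growth hormone and cytokine receptors, fell in these 3 comparisons, with log2 changes of -0.50 ± 0.11 (limma adjusted p = 0.000293), -0.45 ± 0.11 (adjusted p = 0.0015) and -0.55 ± 0.11 (adjusted p = 0.000411).

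Of 15 feedback genes besides Socs3, 3 rose and 7 fell at the highest NM-203 dose, 3 rose and 5 fell under Min-U-Sil 5, and 4 fell under TPA. Of all genes, 14.0%, 11.6% and 4.89% were called higher and 19.1%, 13.9% and 6.78% lower, in the same order. Cish, a suppressor of STAT5 signalling, fell by 1.97 (limma adjusted p = 7.28e-14), 1.65 and 0.82 in these 3 comparisons. Socs2 fell by 0.96, 0.79 and 0.52, and Socs5 by 1.01, 0.79 and 0.61. Ptpn2, a phosphatase of Janus kinases, rose by 0.63 ± 0.10 at the highest NM-203 dose and 0.40 ± 0.10 under Min-U-Sil 5.

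STAT3 target genes outside the 9 members more often rose than fell. Of 25 measured, 13 rose and 3 fell at the highest NM-203 dose, 11 rose and 1 fell under Min-U-Sil 5, and 9 rose and 3 fell under TPA, with median changes of 0.51, 0.33 and 0.12. Beside them, 14.0%, 11.6% and 4.89% of all genes were called higher and 19.1%, 13.9% and 6.78% lower. Myc, a growth-promoting transcription factor, rose by 2.51 ± 0.21 at the highest NM-203 dose (limma adjusted p = 8.7e-11), 2.30 ± 0.21 under Min-U-Sil 5 and 0.79 ± 0.21 under TPA. Birc5, which encodes survivin and is made by dividing cells, rose by 2.25, 1.67 and 1.95. The repressor gene Bcl6 rose by 1.21, 0.93 and 0.73. Fos fell by 1.89 under TPA (adjusted p = 9.19e-07). These genes are targets of other factors too, and the list does not single out STAT3. The list was chosen with earlier results of these data known, so its counts and adjusted p-values are descriptions. Genes of the list were also called in both directions at 2 µg/cm² of NM-203, where 16.2% of all genes were higher and 8.85% lower. Under diatomaceous earth 0 of the 25 were called.

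The interleukin-1, tumour necrosis factor and NF-kB pathways, inducers of Il6, were measured with 23 genes. These include inhibitors, such as the receptor antagonist gene Il1rn, so the counts give no direction for the pathways. At the highest NM-203 dose 4 were called higher and 4 lower, near the 14.0% and 19.1% of all genes, and under Min-U-Sil 5 the counts were 3 and 5. At 2 µg/cm² of NM-203 they were 7 and 0, of which Il1rn was at background in both groups, under diatomaceous earth 2 and 0, under TPA 3 and 0, and at 1 µg/cm² 0 and 0. Against the Min-U-Sil 5 water, which shares its slides, the counts at 2 µg/cm² were 3 and 0, beside 7.70% and 7.88% of all genes. In the Min-U-Sil 5 water against the other water they were 5 and 1, beside 18.8% and 5.67%. A dose effect and a slide or scan-day difference cannot be told apart in the 7 calls. The shares of all genes were 11.6% and 13.9% under Min-U-Sil 5 and 16.2% and 8.85% at 2 µg/cm². They were 0.557% and 0.449% under diatomaceous earth and 4.89% and 6.78% under TPA. Il1rl1, the IL-33 receptor, rose in 5 of the 6 comparisons, by 1.36 and 2.72 at 2 and 5 µg/cm² of NM-203, 0.90 under diatomaceous earth, 2.5 under Min-U-Sil 5 and 2.24 under TPA, each with an SE of 0.15. Its ligand gene Il33 was well above background on all 4 water arrays and on 0 at the highest NM-203 dose, a difference of at least 5.17-fold (limma adjusted p = 4.43e-13), and fell by 2.01 under Min-U-Sil 5. Il1rn, the IL-1 receptor antagonist, was well above background on 4 arrays each at the highest NM-203 dose and under Min-U-Sil 5 and on 0 in their controls. It passed the filter only through those 2 groups, so its part in the counts called higher there is no support for a change. The bounds of at least 2.41-fold and 1.82-fold are descriptions. Tnfrsf1b, a tumour necrosis factor receptor, rose by 0.97 and 1.12 at 2 and 5 µg/cm² of NM-203, 0.64 under diatomaceous earth, 0.89 under Min-U-Sil 5 and 1.21 under TPA. Il1a and Il1b did not pass the filter on dim probes.

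**Figure D4:**
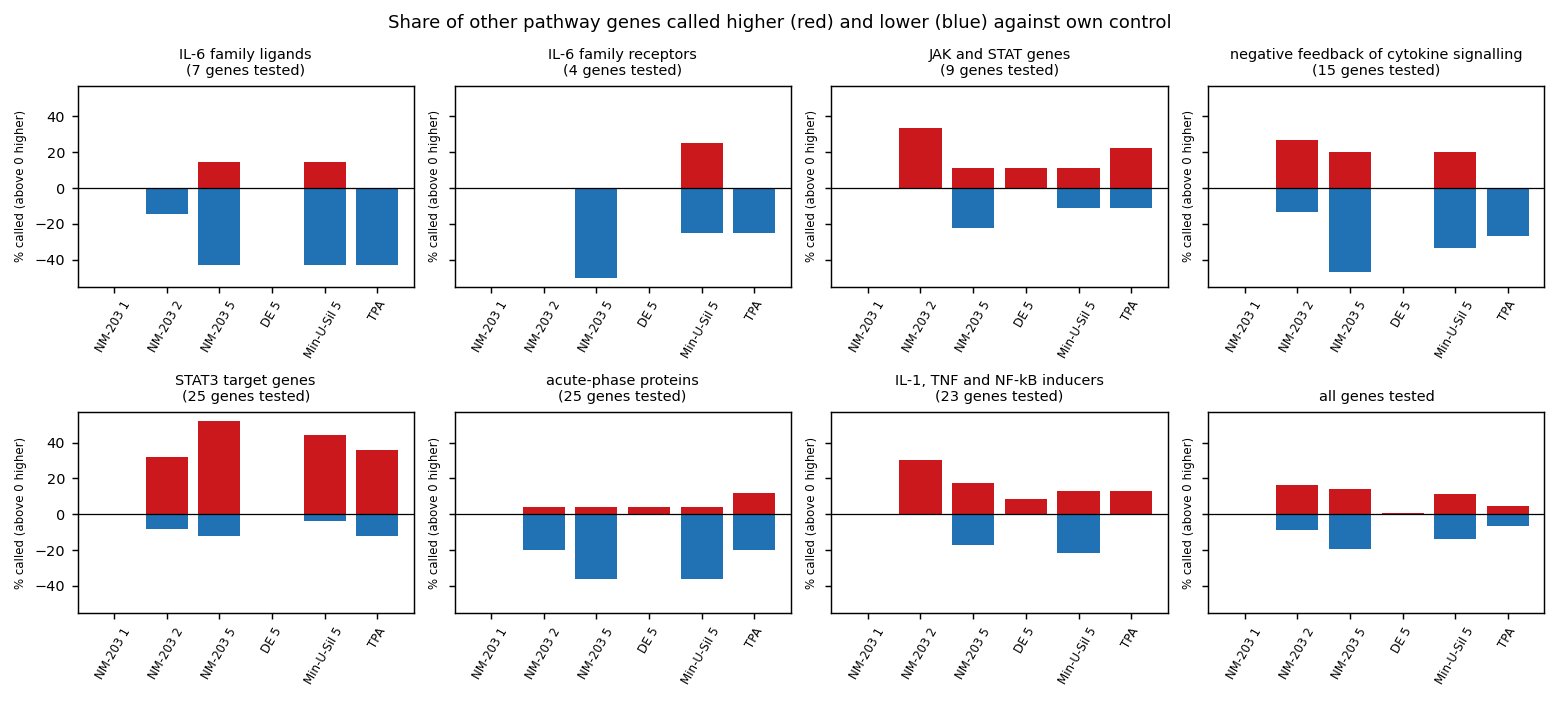
Share of measured pathway genes, without the 9 members, called higher (red, above 0) or lower (blue, below 0) against own control at an adjusted p under 0.05, for 7 gene lists and for all genes tested. At the highest NM-203 dose 13 of 25 STAT3 target genes are higher and 9 of 25 acute-phase genes are lower, and the columns of NM-203 at 1 µg/cm² are empty in the lists.

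Across the 36 arrays, each minus the mean of its own control, Lcn2 followed Saa3 with r = 0.91, and Il6 followed Saa3 with 0.76 and Lcn2 with 0.79. Il11 ran against Saa3, Lcn2 and Il6, with -0.75, -0.69 and -0.78. Stat3 and Socs3 correlated with Saa3 at -0.43 and -0.14. These are descriptions over arrays that share treatments and slides. The 5 genes closest to Saa3 by the same measure were Nupr1 (0.93), Ifitm6, Cox6a2, Car6 and Rsad2, with the last at 0.90. The closest to Il6 were Pfas (0.93), Ctps, Slc6a9, Il1rn and Ddx21 (0.91), and the closest to Lcn2 were Stip1 (0.89), Ergic1, Wdr54, Srpk1 and Tubg1 (0.88). Il1rn passed the filter on dim probes only through the highest NM-203 dose and Min-U-Sil 5, so its place here supports nothing.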

How the data were processed

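RNA of Bhas 42 cells was hybridised to one-colour Agilent arrays, 4 in each of 9 groups taken from the labels. The deposited scanner files hold spot intensity as background-corrected processed signal, per the file headers, written by Agilent Feature Extraction 11.0.1.1 per the submitters' processing notes. Outlier spots and control spots were left out, log2 signal was taken minus each array's 75th percentile, and spots of a probe were averaged. The filter kept probes that the scanner marked as well above background on 3 or more of the 4 arrays in any one group, and the brightest probe stood for a gene (32492 genes). Group means were fitted with limma 3.58.1 (R 4.3.3, lmFit and eBayes, Benjamini-Hochberg adjustment). For a probe at background on all 4 arrays of one group, a bound replaces the fold, set against the higher of the dim signal and the lowest signal called above background. On simulated data for NM-203 5 against water, with 200 of 32492 genes changed, 67.8% of 2-fold and 90.3% of 4-fold changes were recovered, with 6 false calls. The simulated noise was independent between arrays, without slide or scan-day differences. Far fewer genes were changed than the 33.1% called in the data. These values therefore check the fit and do not measure recovery or false calls in these data. The number of arrays limits the precision.

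The authors' deposited value table holds log2 values centred near 0, and it served as an alternative. Its values for Min-U-Sil 5 replicates 1, 2 and 3 match the scanner values of other replicates of that group (best r about 0.9997, own r 0.647 to 0.807), which leaves the group mean as it is. Promoter windows come from RefSeq (GRCm38.p6). The members and gene lists were chosen with earlier results of these data known. Named genes are the members, up to 5 genes per list and comparison with the largest change among those called, the amyloid paralogs, the markers, and the 5 genes most like Saa3, Lcn2 and Il6. Itih4, which the rule did not reach, was named after its values were seen, and a gene named for one comparison may also be given in others. Alternatives covered background correction, scaling, the dim-probe filter, slide, scan day and replicate number as blocks, array weights, probe averaging, the deposited table and leaving out each array. Of the columns of per-sample values, 0 were left unmapped. Some genes of the ligand list and of the JAK and STAT list are in the counts but are not reported here by name.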

Additional observations from a re-analysis of the deposited data

Results flagged for a closer look

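In 81 groups of 4 arrays, one per member and group, 4 arrays lay far enough from the other three to pass Dixon's 95% critical value, where chance passes about 1 in 20 groups. Socs3 read 1.49 on replicate 2 of NM-203 at 2 µg/cm². Lcn2 read -0.19 on replicate 3 of diatomaceous earth. Stat3 read 3.62 on replicate 2 of TPA, and Osmr read 3.23 on replicate 3 of Min-U-Sil 5.

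The responses of some members differed between treatments by more than the threshold of the limma fit. The members were selected on these responses, so the differences are descriptions and no p-value is given. NM-203 at 5 µg/cm² and TPA, each against its own control, differed by 2.98 for Saa3, 1.48 for Lcn2, 1.46 for Il6 and -0.64 for Il11. Min-U-Sil 5 and diatomaceous earth differed by 1.13 for Il6. Min-U-Sil 5 and TPA differed by 2.03 for Saa3.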

How the results depend on the processing

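Of the 8 measured members, 3 were called for NM-203 at 2 µg/cm² and 1 with median scaling, slide as a block, scan day as a block or a fit of the 2 groups alone. Diatomaceous earth had 2, then 1 with median scaling and 0 in a fit of the 2 groups alone, and NM-203 at 1 µg/cm² had 0, then 1 with array weights. Leaving out single arrays gave 0 to 1, 2 to 5 and 5 to 6 members at the 3 rising NM-203 doses, 1 to 2 for diatomaceous earth, 4 for Min-U-Sil 5 and 2 to 3 for TPA. Some changes that were not called turned sign between settings, such as Il6st under diatomaceous earth (-0.16 to 0.19). Among changes called in the main fit or in the alternative, the signs that turned were all at 2 µg/cm². Against the Min-U-Sil 5 water, Il6st became 0.12, Sh2b3 -0.10, Cebpd -0.14, Ccnd1 0.022 and Orm1 0.0565. With the mean over probes, Osmr became -0.044 (-0.0089 against 1 µg/cm²), Ptpn11 -0.027, Bcl2l1 -0.54 and Cp -0.052. Bcl2l1 was -0.051 with slide and -0.083 with scan day as a block, and Il1rn -0.31 without the dim-probe filter. The cause was not tested. Median scaling moved every gene by 0.10 for NM-203 5 against water, 0.12 against diatomaceous earth and -0.32 between the 2 water controls. Over all genes, calls at 2 µg/cm² went from 8125 to 5330 with median scaling, 2328 with slide, 1716 with scan day as a block, 2912 with the 2 groups alone and 5061 against the Min-U-Sil 5 water, and for TPA from 3792 to 1747 with median scaling and 6510 with array weights. Diatomaceous earth went from 327 to between 0 and 570, and NM-203 at 1 µg/cm² from 28 to between 0 and 310. Same-numbered arrays did not deviate together (6 of 24 pairs over r = 0.1, 7 best with their own number), and the replicate block left the counts of members at 0, 3, 6, 2, 4 and 3.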
